A study of Homo sapiens with 16 samples.

Results

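Protocadherins are the largest branch of the cadherin superfamily of calcium-dependent adhesion molecules. The genes were taken by name from the deposited gene table: every symbol that begins with PCDH, carries no hyphen and does not end in P followed by digits. This gave 72 of 57500 genes. Of these, 59 are clustered genes, 16 of the alpha, 19 of the beta and 24 of the gamma cluster, and 13 are non-clustered genes (PCDH followed by a number). The rule keeps 5 clustered genes with pseudogene names (PCDHB17P, PCDHB18P, PCDHB19P, PCDHGB8P and PCDHGB9P) and leaves out 5 names, PCDH8P1 and 4 antisense genes of PCDH9.

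The clustered genes lie side by side in 3 arrays. In the alpha and gamma arrays each gene contributes its own first exon, which encodes the extracellular, transmembrane and proximal cytoplasmic parts and is transcribed from its own promoter, and the transcript is then spliced to constant exons common to the array. Neurons switch on different combinations of the variable genes by promoter choice, which depends on CTCF, cohesin and DNA methylation, and the proteins bind in matched combinations across cells, so that branches of the same neuron recognise each other. The C-type genes at the end of the alpha and gamma arrays are less subject to this choice. The non-clustered protocadherins, among them the delta-1 group (PCDH1, PCDH7, PCDH9, PCDH11X and PCDH20) and the delta-2 group (PCDH8, PCDH10, PCDH17, PCDH18 and PCDH19), are single genes with promoters of their own that act in sorting, migration and wiring of cells in the embryo and brain.

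RNA was measured in HEK293T, a human line of embryonic kidney origin with SV40 large T antigen, in 4 groups of 4 libraries. All cells held a lentiviral vector. It expressed histone H2A, or the mutant E92K, which puts a lysine in place of a glutamate in the acidic patch on the nucleosome surface. The groups were H2A cells with DMSO, E92K cells with DMSO, H2A cells with 1 µM JQ1 (a BET bromodomain inhibitor) for 3 h, and H2A cells with 2.5 µM pinometostat (a DOT1L inhibitor) for 24 h. The promoter of the vector, whether the cells are 1 clone, and a time with DMSO were not found in the labels. The 3 comparisons share the same 4 H2A libraries with DMSO, so a difference in time or handling cannot be told apart from the compound. The labels number the samples without naming separate cultures, so the p-values reflect the spread of these samples alone, and that spread could be technical. The level of the vector's transcript was not analysed here, so the E92K label was not checked.

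Total counts ran from 17779692 to 27599686 per library. A pair of libraries stood apart by the share of counts from the mitochondrial genome, which was 16.5% in JQ1 replicate 1 (the others treated with JQ1 had 3.04% to 3.69%) and 7.45% in replicate 4 of E92K (the others had 3.77% to 4.95%). Levels below are CPM, counts scaled to a common library size, with sizes adjusted by TMM. The kidney label was checked against fixed markers. SIX2 and SALL1, of nephron progenitors, were at 15.6 to 40.4 and 16.03 to 40.02 CPM over the 16 libraries, and PAX2 at 4.17 to 7.81 CPM. UMOD, of mature tubules, had 0 counts, and PAX8 had 7 counts in all. Among markers of other cells, neurofilament genes were well expressed (NEFM at 83.6 to 603 CPM), the blood marker HBB had 0 counts and PTPRC did not pass 0.0933 CPM.

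The promoter windows of 4 genes are printed here because these genes carry most of what follows: PCDHGC3 and PCDHGA11 are the clustered genes with the most counts, and PCDH18 and PCDH19 are non-clustered genes called lower and higher with JQ1. Each window is from RefSeq (GRCh38.p14), runs from 250 bases before to 50 bases after the annotated start, and is written 5′ to 3′ on the gene's strand. They lie at chr5:141475716-141476015 (plus strand) for PCDHGC3, chr5:141420801-141421100 (plus) for PCDHGA11, chr4:137532445-137532744 (minus) for PCDH18 and chrX:100410224-100410523 (minus) for PCDH19. Capitals mark CGCT, the box within the conserved sequence element of clustered protocadherin promoters, and its reverse complement AGCG.
PCDHGC3: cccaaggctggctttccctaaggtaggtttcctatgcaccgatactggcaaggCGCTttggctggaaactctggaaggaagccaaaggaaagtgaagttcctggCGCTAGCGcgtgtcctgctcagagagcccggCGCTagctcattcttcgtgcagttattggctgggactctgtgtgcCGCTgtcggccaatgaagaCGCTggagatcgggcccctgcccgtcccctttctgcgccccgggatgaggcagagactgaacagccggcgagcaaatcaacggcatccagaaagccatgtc
PCDHGA11: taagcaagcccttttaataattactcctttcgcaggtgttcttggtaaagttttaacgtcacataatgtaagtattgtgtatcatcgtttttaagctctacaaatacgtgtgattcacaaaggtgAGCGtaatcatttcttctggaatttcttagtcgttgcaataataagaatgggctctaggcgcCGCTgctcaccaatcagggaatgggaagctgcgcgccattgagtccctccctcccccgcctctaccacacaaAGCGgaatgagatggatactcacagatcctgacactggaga
PCDH18: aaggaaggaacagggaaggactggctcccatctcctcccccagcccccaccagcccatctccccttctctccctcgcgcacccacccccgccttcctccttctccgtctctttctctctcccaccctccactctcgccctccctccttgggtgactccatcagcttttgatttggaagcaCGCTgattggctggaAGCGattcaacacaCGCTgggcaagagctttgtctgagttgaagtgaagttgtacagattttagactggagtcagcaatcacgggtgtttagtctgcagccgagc
PCDH19: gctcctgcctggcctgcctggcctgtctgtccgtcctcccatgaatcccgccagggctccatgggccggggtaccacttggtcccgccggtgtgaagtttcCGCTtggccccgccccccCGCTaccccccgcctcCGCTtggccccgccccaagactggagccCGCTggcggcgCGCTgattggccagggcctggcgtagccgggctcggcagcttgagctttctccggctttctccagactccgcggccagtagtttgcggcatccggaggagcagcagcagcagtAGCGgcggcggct
The matches, counted on both strands, number 6, 3, 3 and 6 in this order. At PCDHGC3 a CGCT and an AGCG lie directly next to each other.

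Of the 72 genes, 58 had a window in the RefSeq table. CGCT or AGCG was found in 51 of 52 windows of 47 clustered genes, and the matches included the forward CGCT in all 51. Among non-clustered genes 11 of 15 windows held a match and 7 held the forward one. Over all 35116 windows of the same length in the table the share was 70.0%, so a match to 4 letters is common in promoters of any kind. Most clustered windows were poorer in G and C than the median promoter. The median GC content was 37.3% in the alpha, 40.8% in the beta and 47.3% in the gamma array, 56.7% in non-clustered genes and 58.7% over all windows. Above this last value were 7 of 52 clustered windows, those of PCDHGC3, PCDHGC4, PCDHGB5, PCDHGB6, PCDHAC1 and PCDHAC2. AGNGGGC, which matches only some forms of the CTCF motif core, was searched on both strands. It was found in 4 of the 52 clustered and 5 of the 15 non-clustered windows, and in 30.4% of all windows. Other forms of the core were not counted, so these numbers do not give the share of windows with a CTCF motif.

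The clustered genes all lie on the plus strand of chromosome 5, from 140786136 to 141512981 (GRCh38), and their RNA was almost all from the gamma array. Over the 16 libraries the gamma genes had 8755 counts, the beta genes 415 and the alpha genes 172. The first of the 3 C-type gamma genes, PCDHGC3, took 62.0% of all clustered counts, and PCDHGA11, a gene of the A subfamily, took 14.7%. PCDHGC4, a C-type gene whose protein needs another protocadherin to reach the cell surface, took 4.18%. PCDHGB7 took 2.53%, and the remaining 55 genes shared the rest.

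**Figure D1:**
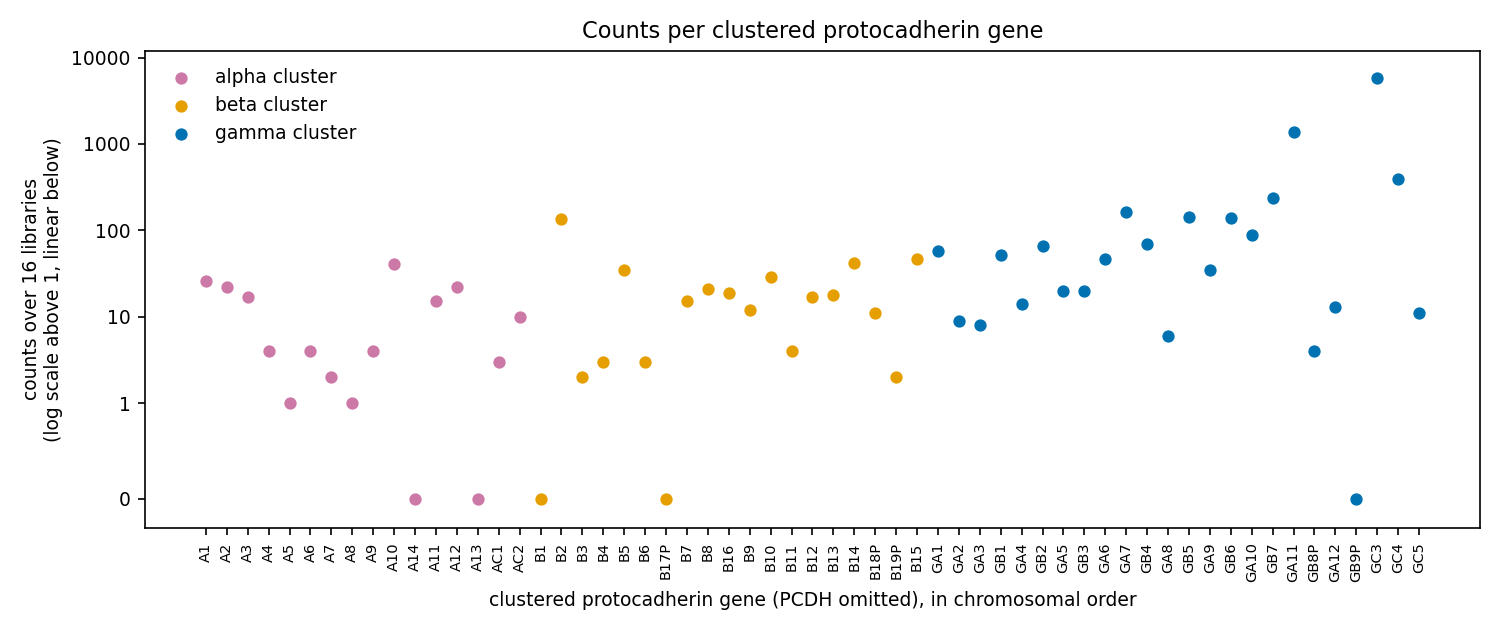
Counts of each of the 59 clustered genes summed over the 16 libraries (vertical axis, logarithmic above 1 and linear below), in chromosomal order with the prefix PCDH left out, coloured by array. PCDHGC3, with 5791 counts, and PCDHGA11, with 1375, stand above all other clustered genes, and 5 genes lie at 0.

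The alpha array was close to silent at this depth. None of its 16 genes passed the count filter, no alpha gene had more than 6 counts in a library, and PCDHA13 and PCDHA14 had no count in any library. PCDHA14 is annotated as a pseudogene, and its whole exonic length is shared with other genes. How reads in shared exons were assigned is not given, so its lack of counts is not informative. The alpha genes with the most counts were PCDHA10 with 41, PCDHA1 with 26, and PCDHA2 and PCDHA12 with 22 each over the 16 libraries. PCDHA10 had 6, 3, 2 and 4 counts in the H2A libraries with DMSO, 4 in each E92K library, 0, 1, 0 and 1 with JQ1, and 1, 4, 0 and 3 with pinometostat. PCDHA1 had 0, 3, 1 and 5 counts with DMSO, 4, 2, 1 and 0 in E92K, 0, 0, 0 and 3 with JQ1, and 2, 2, 3 and 0 with pinometostat. PCDHA2 had 0, 3, 3 and 0 counts with DMSO, 2, 1, 0 and 0 in E92K, 1, 1, 3 and 3 with JQ1, and 2, 0, 3 and 0 with pinometostat. Single counts of this size do not allow a comparison between groups.

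In the beta array, whose genes consist of a single coding exon without constant exons, PCDHB2 was the only 1 of 19 genes to pass the filter, with 136 counts. It lay at 0.375, 0.303, 0.407 and 0.488 CPM with DMSO and at 0.743, 0.420, 0.451 and 0.447 CPM in E92K. It lay at 0.363, 0.244, 0.155 and 0.140 CPM with JQ1 and at 0.492, 0.342, 0.200 and 0.223 CPM with pinometostat. Every group overlapped DMSO, although 3 of 4 JQ1 libraries were below every DMSO library. PCDHB15 followed with 46 counts (5, 6, 5 and 1 with DMSO, 2, 1, 0 and 2 in E92K, 1, 4, 3 and 2 with JQ1, 5, 3, 5 and 1 with pinometostat), and PCDHB14 with 42 (2, 2, 1 and 5 with DMSO, 3, 4, 1 and 0 in E92K, 3, 1, 2 and 5 with JQ1, 2, 1, 3 and 7 with pinometostat). PCDHB1 and PCDHB17P had no count.

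In the gamma array 7 of 24 genes passed the filter: PCDHGC3, PCDHGA11, PCDHGC4, PCDHGB7, PCDHGA7, PCDHGB5 and PCDHGB6. PCDHGC3 is at 141475947 to 141512979, PCDHGA11 at 141421047 to 141512979 and PCDHGC4 at 141484997 to 141512979 on chromosome 5. These spans end together because they include the constant exons. In PCDHGC3 59.9% of the exonic length belongs to no other gene, in PCDHGA11 62.5% and in PCDHGC4 56.2%. How reads in the constant exons were assigned is not given in the sources used here, so each count may miss or split such reads.

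The non-clustered genes together had 59040 counts against 9342 for the clustered ones, and 10 of 13 passed the filter. The exceptions were PCDH11X with 65 counts, its near-identical Y-linked copy with 4, and PCDH20 with 70. Only 4.21% of the exonic length of PCDH20 belongs to no other annotated gene. Levels of different genes are compared here per kilobase of exon that no other gene shares, in the H2A libraries with DMSO. PCDHGC3 had the highest mean, 6.07 ± 1.07 CPM per kb (SD, n = 4), ahead of PCDH7 at 4.22 ± 0.42 and PCDH10 at 3.78 ± 0.58. By full exonic length PCDHGC3 would be at 3.63 ± 0.64, below the means of PCDH7 and PCDH10, so its place in the order depends on how the constant exons were counted. The ranges of PCDH7 (3.67 to 4.58) and PCDH10 (3.097 to 4.466) overlapped, while PCDHGC3 (4.80 to 7.01) was above both.

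PCDH9 at 1.60 ± 0.03 CPM per kb and PCDHGA11 at 1.25 ± 0.14 came next, and their ranges did not overlap. By full exonic length PCDHGA11 would be at 0.781 ± 0.087, below the means of PCDH18, PCDH19 and PCDH1, so its place too depends on the constant exons. PCDH18, PCDH19, PCDH1 and PCDH17 formed a group of neighbours at 0.935 ± 0.248, 0.809 ± 0.120, 0.796 ± 0.101 and 0.692 ± 0.098 CPM per kb, whose neighbours in this order do not differ beyond their spread. PCDHGC4 followed at 0.482 ± 0.121 (0.271 ± 0.068 by full exonic length, below PCDH8) and PCDH8 at 0.314 ± 0.059. The other 7 genes that passed the filter were lower still, down to PCDH15, a component of the tip link of inner-ear hair cells.

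**Figure D2:**
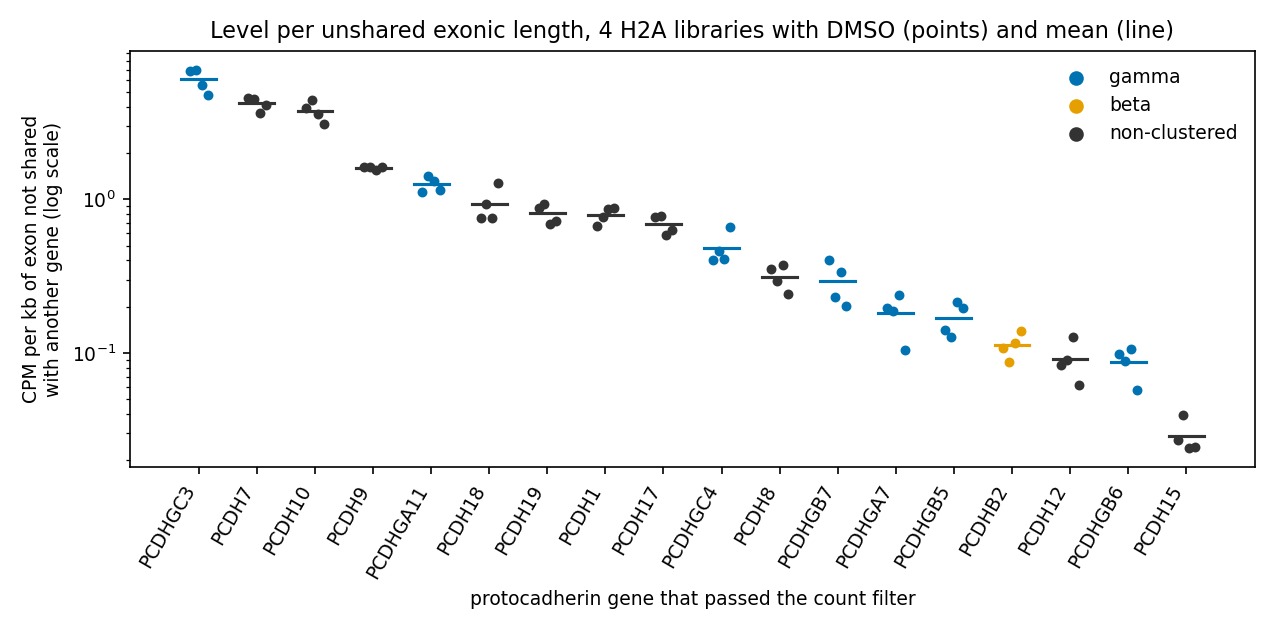
Level of the 18 genes that passed the count filter in the 4 H2A libraries with DMSO, in CPM per kb of exon not shared with another gene (logarithmic axis), with points for libraries and lines for means. PCDHGC3 leads at 6.07 CPM per kb, followed by PCDH7 and PCDH10.

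With JQ1, 4 non-clustered genes were called: the delta-2 genes PCDH18 and PCDH8 and the delta-1 gene PCDH1 lower, and the delta-2 gene PCDH19 higher. The calls of PCDH8 and PCDH19 were lost in some alternative settings. None of the 8 clustered genes tested passed the threshold, and their lowest adjusted p was 0.169 (PCDHB2). DESeq2, limma-voom and the other alternatives called none of the 8 either. The log2 fold changes of these 8 had standard errors from 0.32 to 0.53, against 0.093 to 0.43 for the non-clustered genes tested. Smaller changes in the clustered genes could therefore be missed. In all, 4 of 18 genes tested were called, 1 higher and 3 lower. A call is an adjusted p below 0.05 by the quasi-likelihood test of edgeR with Benjamini-Hochberg adjustment. Of all 17306 genes tested 17.6% were called, 7.16% higher and 10.4% lower, so the count of members is near that background. At an unadjusted p below 0.05 there were 6 of 18, all of them non-clustered, against 31.1% of all genes, a similar share. In bulk RNA a change of level per cell and a change in which cells are present cannot be told apart, here and in the results that follow.

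PCDH18 (chromosome 4, 137518918 to 137532494, minus strand), a delta-2 protocadherin, lay at 5.07, 6.27, 5.08 and 8.60 CPM with DMSO and at 1.96, 1.95, 1.86 and 2.29 CPM with JQ1. Every JQ1 library was below every DMSO library, JQ1 replicate 1 included. The log2 fold change was -1.63 ± 0.20 (SE, adjusted p = 1.523e-05, edgeR), and PCDH18 was called in all 20 alternative settings, with log2 fold changes from -1.80 to -1.13. With pinometostat it lay at 9.13, 6.19, 9.05 and 6.26 CPM and in E92K at 6.65, 6.58, 6.68 and 6.53 CPM, both overlapping DMSO.

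PCDH1 (chromosome 5, 141853111 to 141879246, minus strand), a delta-1 protocadherin of epithelia that also serves as a hantavirus receptor, lies beyond the gamma array on the opposite strand. It lay at 3.94, 4.51, 5.12 and 5.22 CPM with DMSO and at 2.39, 2.64, 2.85 and 3.17 CPM with JQ1, again without overlap. It fell by 0.76 ± 0.16 on the log2 scale (adjusted p = 0.003425, edgeR) and was called in all 20 alternative settings. Genes whose groups did not overlap made up 2 of the 18, both lower, against 20.5% over all genes (12.2% lower and 8.26% higher).

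PCDH8 (chromosome 13, 52842889 to 52848641, minus strand), also called arcadlin, is a delta-2 protocadherin known from activity-dependent removal of N-cadherin at synapses. It lay at 1.80, 1.52, 1.91 and 1.24 CPM with DMSO and at 0.725, 1.37, 0.725 and 0.839 CPM with JQ1. JQ1 replicate 2 was above the lowest DMSO library, so the groups overlapped. It fell by 0.80 ± 0.24 on the log2 scale (adjusted p = 0.02528, edgeR), and 12 of 19 alternatives kept the call. It was lost without DMSO replicate 1 (adjusted p = 0.06452) or 3 (0.07918) and without JQ1 replicate 3 (0.07641) or 4 (0.05995), with log2 fold changes of -0.74, -0.72, -0.70 and -0.75. The call was also lost without a filter (adjusted p = 0.07098, edgeR), with the replicate block (0.05224) and with the 8 libraries of both groups alone (0.08946).

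PCDH19 (chromosome X, 100291644 to 100410273, minus strand), the gene of an X-linked epilepsy with intellectual disability, lay at 8.60, 9.16, 6.79 and 7.02 CPM with DMSO and at 5.80, 15.7, 16.1 and 15.9 CPM with JQ1. JQ1 replicates 2 to 4 were all above the DMSO libraries, and JQ1 replicate 1 was below all of them. It rose by 0.77 ± 0.25 on the log2 scale (adjusted p = 0.03688, edgeR), and it was 0.99 (adjusted p = 1.09e-05) without JQ1 replicate 1 and E92K replicate 4. The call held in 9 of 20 alternatives. It was lost without DMSO replicate 1 (adjusted p = 0.05476), 3 (0.1056) or 4 (0.09852) and without JQ1 replicate 2 (0.09668), 3 (0.08947) or 4 (0.07955), with log2 fold changes from 0.68 to 0.82. The call was also lost under limma-voom, library size alone, the replicate block, log2(TPM + 1) and the 8 libraries of both groups alone.

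PCDH17 (chromosome 13, 57631810 to 57729311, plus strand), a delta-2 protocadherin that recruits the WAVE complex, did not pass the threshold (log2 fold change 0.56 ± 0.23, adjusted p = 0.1001, edgeR). It lay at 5.93, 5.96, 4.47 and 4.88 CPM with DMSO and at 13.2, 5.71, 6.37 and 6.39 CPM with JQ1. Here JQ1 replicate 1 was the highest, and without the pair of libraries that stood apart the log2 fold change was 0.19 (adjusted p = 0.3939).

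**Figure D3:**
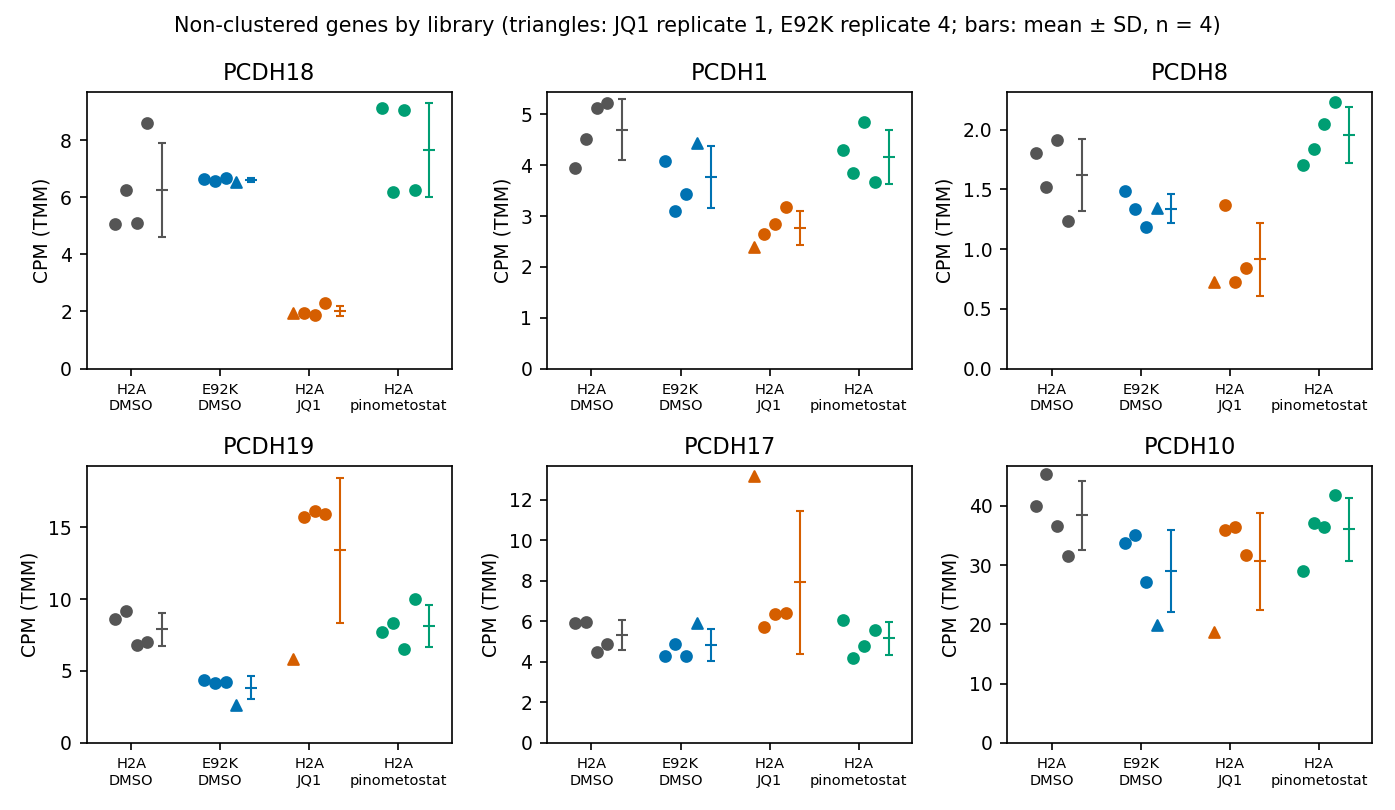
TMM-scaled CPM of 6 non-clustered genes in every library, by group (n = 4 each), with mean ± SD beside the points and triangles for JQ1 replicate 1 and E92K replicate 4. All JQ1 points lie below all DMSO points for PCDH18 and PCDH1, and for PCDH19 3 JQ1 points lie near 16 CPM while the triangle lies at 5.80 CPM.

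The most abundant non-clustered genes by CPM did not pass the threshold with JQ1. PCDH9 (chromosome 13, 66302834 to 67230445, minus strand), a delta-1 gene, lay at 49.8, 50.1, 47.9 and 49.7 CPM with DMSO and at 60.5, 46.6, 50.8 and 54.7 CPM with JQ1 (adjusted p = 0.4768, edgeR). PCDH7 (chromosome 4, 30720415 to 31146805, plus strand), a delta-1 gene that binds the phosphatase inhibitor SET, lay at 56.2, 55.3, 45.0 and 50.2 CPM with DMSO and at 43.6, 46.7, 45.9 and 42.7 CPM with JQ1. Its log2 fold change was -0.21 ± 0.10 (adjusted p = 0.1544), and the groups overlapped. PCDH10 (chromosome 4, 133149315 to 133208606, plus strand), a delta-2 gene that recruits the WAVE complex, lay at 40.1, 45.4, 36.7 and 31.5 CPM with DMSO and at 18.8, 35.9, 36.4 and 31.7 CPM with JQ1, where replicate 1 was the lowest library.

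The gamma genes with JQ1 were set apart by replicate 1. PCDHGC3 lay at 22.5, 22.8, 18.1 and 15.6 CPM with DMSO and at 3.26, 20.7, 21.2 and 21.6 CPM with JQ1. The last 3 of these fall within the DMSO range, and replicate 1 is at 15.4% of their mean. The log2 fold change was -0.23 ± 0.39 (adjusted p = 0.7381, edgeR), and 0.08 (adjusted p = 0.6851) without the pair of libraries that stood apart. PCDHGA11 lay at 4.05, 5.15, 4.76 and 4.21 CPM with DMSO and at 1.23, 4.54, 3.83 and 5.32 CPM with JQ1 (log2 fold change -0.26 ± 0.32, adjusted p = 0.6321, and -0.01 without that pair, adjusted p = 0.9752). PCDHGC4 lay at 1.13, 1.28, 1.14 and 1.84 CPM with DMSO and at 0.290, 1.76, 1.19 and 1.399 CPM with JQ1. In each of these genes JQ1 replicate 1 was below every other library of its group.

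**Figure D4:**
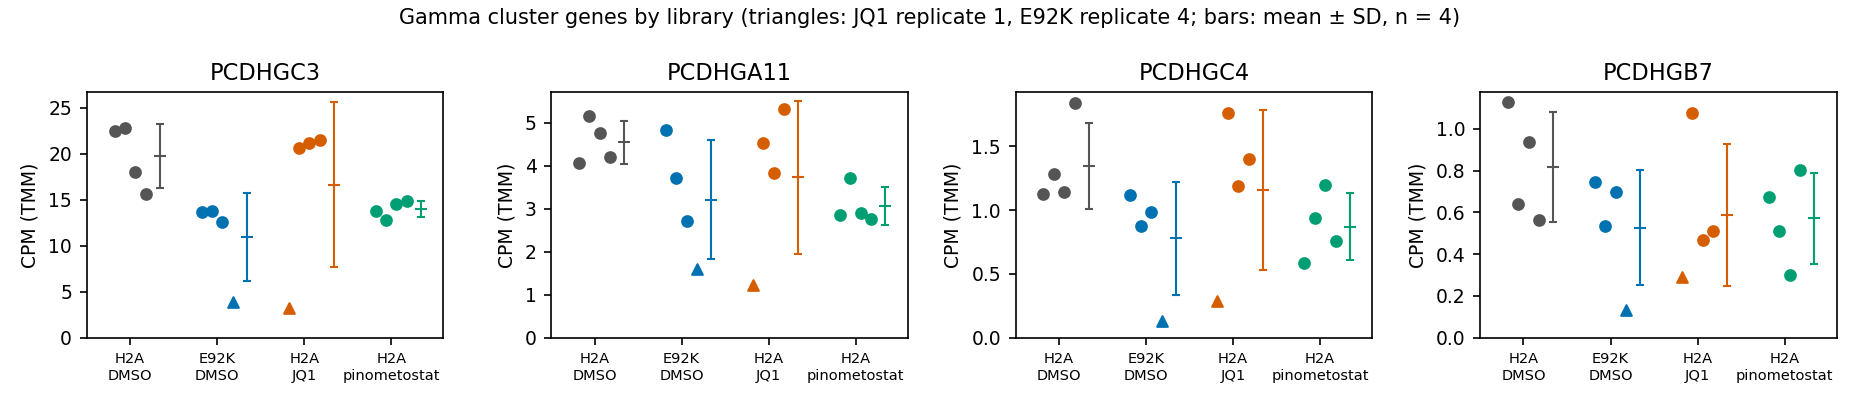
TMM-scaled CPM of the 4 gamma genes with the most counts in every library, by group (n = 4 each), with mean ± SD beside the points and triangles for JQ1 replicate 1 and E92K replicate 4. Both triangles are the lowest point of their group in all 4 genes.

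Over the 8 clustered genes tested, JQ1 replicate 1 was below the other 3 libraries in 6, within their range in 1 and above it in 1, with a median level of 23.5% of theirs. Over the 10 non-clustered genes it was below in 4, within in 3 and above in 3, with a median of 89.6%. Over all genes tested the median was 98.7%, with 42.5% of genes below and 41.6% above the other 3 libraries. E92K replicate 4 was below the other 3 in 7 of 8 clustered genes (median 35.9%) and in 3 of 10 non-clustered genes (median 104%), against 35.8% of all genes below and 33.5% above. The clustered medians rest largely on very few counts. PCDHGA7, PCDHGB5, PCDHGB7 and PCDHGC4 had 1, 1, 4 and 4 counts in JQ1 replicate 1. In E92K replicate 4 they had 2, 4, 3 and 3. PCDHGC3 had 45 and 86 counts in these libraries and PCDHGA11 17 and 36. The summed level of the clustered genes was 8.63 CPM in JQ1 replicate 1 and 8.19 CPM in E92K replicate 4, and between 20.2 and 34.7 CPM in the other 14 libraries. This pair had the lowest sums and the highest mitochondrial shares, 16.5% and 7.45% in the same order. Between them the higher share went with the higher sum. The part of the mitochondrial share in these levels was not tested. The 2 classes were not compared by a test.

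With pinometostat no protocadherin was called by edgeR, against 8.20% of all genes (3.62% higher and 4.58% lower). At an unadjusted p below 0.05 there was 1 of 18, PCDH9, against 25.6% of all genes, and neither DESeq2 nor limma-voom called any. All 8 clustered genes tested had a negative log2 fold change, with a median of -0.50, against 0.10 for the 10 non-clustered and 0.03 for all genes. The quartiles of all genes were -0.20 and 0.27, and their share of negative values was not counted. Of the 8, 7 are gamma genes with shared constant exons, so they are not independent. PCDHGB5 (-0.13 ± 0.51, SE) and PCDHGB6 (-0.05 ± 0.41) changed sign when some single libraries were left out. Genes whose groups did not overlap were PCDHGC3 and PCDHGA11, both lower, and PCDH9, higher, against 26.3% over all genes (13.5% lower and 12.7% higher), so that such separation is common in this comparison.

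PCDHGC3 lay at 13.8, 12.8, 14.6 and 14.8 CPM with pinometostat, each below the lowest DMSO library at 15.6 CPM. The group means were 14 ± 0.91 CPM with pinometostat and 19.7 ± 3.49 CPM with DMSO (SD, n = 4). The log2 fold change was -0.50 ± 0.39 (adjusted p = 0.4546, edgeR). The error is shared with the other groups, which hold the pair of libraries that stood apart. Without them the log2 fold change was -0.51 and the adjusted p 0.002493, and with the 8 libraries of both groups alone the values were -0.52 and 0.007389.

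PCDHGA11 showed the same order, at 2.86, 3.71, 2.90 and 2.77 CPM with pinometostat against a lowest DMSO value of 4.05 CPM. Its log2 fold change was -0.57 ± 0.32 (adjusted p = 0.2784, edgeR). Without the pair of libraries it was -0.58 (adjusted p = 0.01712), and with the 8 libraries alone -0.59 (adjusted p = 0.01198). Without that pair 27.4% of all genes were called with pinometostat. PCDHGC4 lay at 0.582, 0.939, 1.2 and 0.760 CPM, with a log2 fold change of -0.63 ± 0.45 (adjusted p = 0.3992), and 1 of its libraries overlapped DMSO.

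PCDH9 lay at 62.4, 54.4, 58.4 and 54.7 CPM with pinometostat, each above the highest DMSO library at 50.1 CPM. Its log2 fold change was 0.22 ± 0.09 (adjusted p = 0.1455, edgeR) and 0.21 (adjusted p = 0.04942) without the pair of libraries. PCDH7 lay at 42.7, 44.4, 47.6 and 47.5 CPM and PCDH10 at 28.96, 37.2, 36.5 and 41.8 CPM, both overlapping DMSO. PCDH19 lay at 7.74, 8.37, 6.50 and 10.0 CPM, PCDH1 at 4.30, 3.84, 4.85 and 3.66 CPM, and PCDH8 at 1.70, 1.84, 2.05 and 2.23 CPM. None of these passed the threshold, and each group overlapped DMSO.

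In E92K cells no protocadherin was called by edgeR, and 0.00% of all genes were. At an unadjusted p below 0.05 there were 3 of 18, PCDH19, PCDHGC3 and PCDH7, against 7.49% of all genes. DESeq2 and limma-voom called none of them, and limma-voom with library quality weights called PCDH19 and PCDHGC3, where it called 6.34% of all genes. Groups did not overlap for PCDH19, PCDHGC3 and PCDHGC4, all lower in E92K, against 5.17% over all genes (3.18% lower and 1.99% higher). For PCDHGC4 the gap was very small, with 1.115 CPM as the highest E92K value and 1.126 CPM as the lowest of H2A. The median log2 fold change was -0.63 for the 8 clustered genes, 7 of them negative, -0.18 for the 10 non-clustered and 0.00 for all genes. The quartiles of all genes were -0.15 and 0.16, and their share of negative values was not counted. Those 7 are the gamma genes, which share constant exons, so they are not independent. In each of the 7 genes E92K replicate 4 was the lowest library of its group. Without JQ1 replicate 1 and E92K replicate 4 their log2 fold changes ran from -0.59 to -0.28, and PCDHB2 was at 0.45.

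PCDH19 lay at 4.38, 4.13, 4.22 and 2.64 CPM in E92K, each below the lowest DMSO library of H2A cells at 6.79 CPM. The log2 fold change was -1.04 ± 0.26 (adjusted p = 0.6556, edgeR). Without JQ1 replicate 1 and E92K replicate 4 it was -0.89 (adjusted p = 0.04783), where 3 of all genes tested (0.0172%) were called. PCDHGC3 lay at 13.7, 13.8, 12.5 and 3.85 CPM, each below the lowest H2A library, with a log2 fold change of -0.84 ± 0.40 (adjusted p = 0.6556). Replicates 1 to 3 had a mean of 13.4 ± 0.71 CPM (SD, n = 3) against 19.7 ± 3.49 CPM in H2A cells, and without the pair of libraries the log2 fold change was -0.56 (adjusted p = 0.3194).

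PCDHGC4 lay at 1.11, 0.879, 0.984 and 0.134 CPM in E92K, with a log2 fold change of -0.78 ± 0.45 (adjusted p = 0.6637, edgeR) and of -0.44 (adjusted p = 0.5256) without the pair. The E92K values were below the H2A range, but only just: E92K replicate 1 had 27 counts and the lowest H2A library 30. PCDHGA11 lay at 4.83, 3.71, 2.71 and 1.61 CPM and overlapped H2A. PCDH7 lay at 45.7, 38.6, 47.7 and 46.0 CPM, PCDH10 at 33.7, 35.0, 27.2 and 19.9 CPM, and PCDH9 at 52.8, 50.04, 54.5 and 54.2 CPM. In PCDH10 E92K replicate 4 was the lowest library of its group, as JQ1 replicate 1 was in its own.

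**Figure D5:**
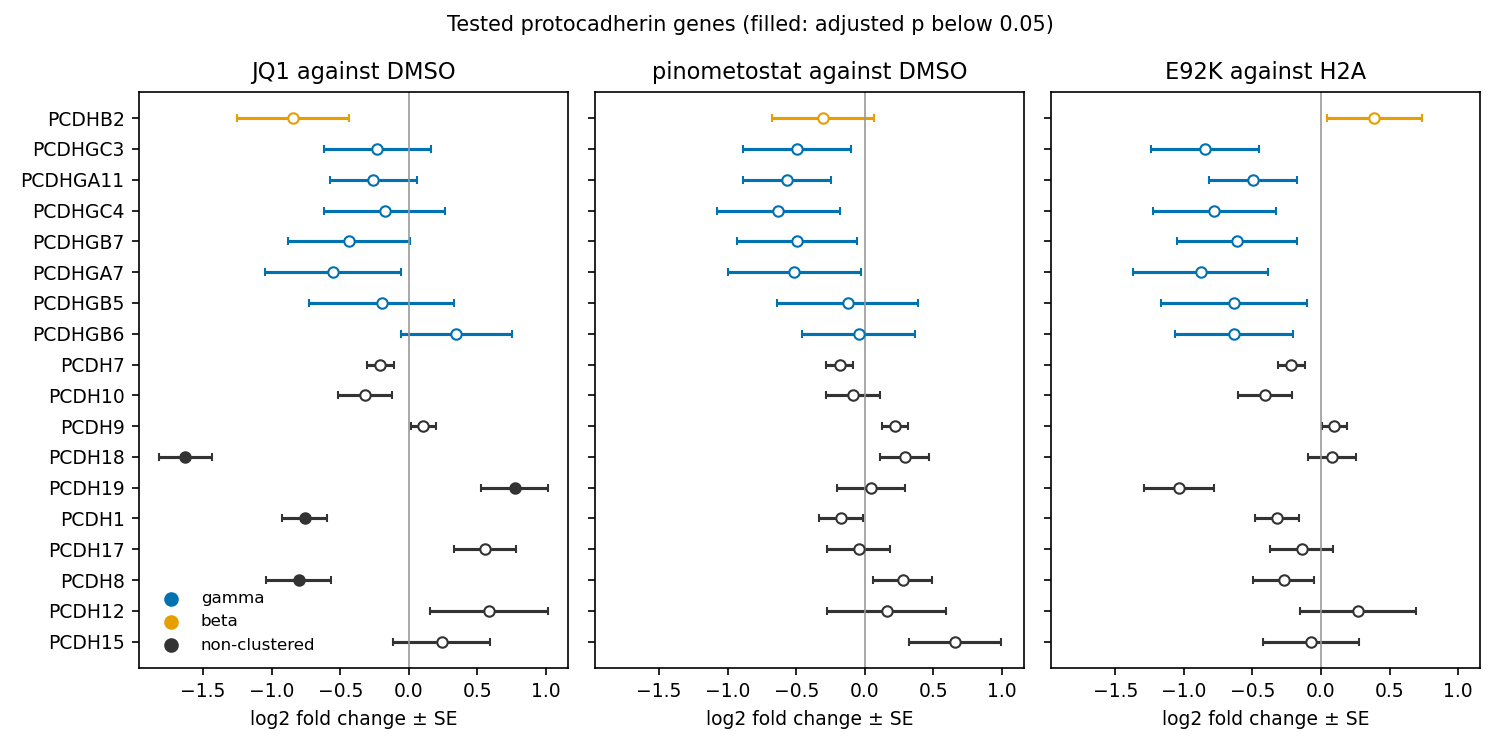
Log2 fold change ± SE of the 18 protocadherin genes tested, in the 3 comparisons with the same H2A libraries with DMSO. Filled points have an adjusted p below 0.05, which holds for PCDH18, PCDH1, PCDH8 and PCDH19 with JQ1 and for no gene in the other panels.

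As a share of all protocadherin counts, the clustered genes took 14.2% to 16.4% in the H2A libraries with DMSO and 11.7% to 12.1% with pinometostat. The share was 5.42% in E92K replicate 4 and at most 13.97% in E92K, and 5.47% in JQ1 replicate 1 and at most 17.1% with JQ1. The summed CPM of the clustered genes was 31.3 ± 3.85 with DMSO, 22.7 ± 0.71 with pinometostat, 19.1 ± 7.56 in E92K and 26.1 ± 11.7 with JQ1 (SD, n = 4). The non-clustered sums were 167 ± 11.8, 168 ± 5.18, 148 ± 5.17 and 157 ± 5.61 CPM in the same order. The sums are carried by PCDHGC3, PCDH9, PCDH7 and PCDH10, and are given as a description.

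The genes most like the leading members over the 16 libraries were taken from 11498 genes with at least 5 CPM, by Pearson's r of log2 CPM, as a description. For PCDHGC3 they were NOMO2 (r = 0.981), CANT1 (0.977) and ABHD2 (0.977), and for PCDHGA11 UBQLN1 (0.939), SENP3 (0.935) and ENPP2 (0.934). Without the pair of libraries that stood apart the values were 0.883, 0.863 and 0.861, and 0.825, 0.810 and 0.800, so these likenesses rest in part on those libraries. For PCDH9 they were CEP295 (0.901), TYW5 (0.893) and GEN1 (0.857), and for PCDH7 RTN4R (0.755), CYP2S1 (0.755) and SLC6A6 (0.713). The points share library depth and the 2 libraries.

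Genes known to act on clustered protocadherin promoters were listed as 34 regulators, all of them tested. With JQ1 2 were higher and 4 lower, with a median log2 fold change of 0.04, equal to that of all genes to 2 decimals. All genes were called at 17.6% (7.16% higher and 10.4% lower), so 6 of 34 is no more than the background. SETDB1, a histone H3 lysine methyltransferase that acts on the clusters, fell by 0.45 ± 0.10 (adjusted p = 0.003812, edgeR), and the DNA demethylase TET2 fell by 0.89 ± 0.18 (adjusted p = 0.001989). ZNF143 fell by 0.53 and TET1 fell by 0.68. TRIM28, the corepressor that recruits SETDB1, rose by 0.63 ± 0.13, from 490.5 ± 39.2 to 757 ± 144 CPM (adjusted p = 0.002286), and the cohesin acetyltransferase ESCO2 rose by 0.52 (adjusted p = 0.02404).

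With pinometostat 0 of the 34 regulators were higher and 4 lower, with a median of -0.10 against 0.03 for all genes, of which 8.20% were called (4.58% lower). TRIM28 fell by 0.60 ± 0.13 to 324 ± 24.2 CPM (adjusted p = 0.01287, edgeR), the DNA methyltransferase DNMT3B fell by 0.51 ± 0.11 (adjusted p = 0.01086), WIZ, a zinc finger protein that works with CTCF, fell by 0.58 ± 0.13 (adjusted p = 0.01613), and the histone methyltransferase EHMT2 fell by 0.45 ± 0.11 (adjusted p = 0.02345). In E92K none was called, with a median of -0.02 against 0.00. CTCF and the cohesin core genes were not among those called in any comparison.

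Partners of the cytoplasmic domains and the WAVE complex gave 33 genes, all tested. With JQ1 0 were higher and 1 lower: MARCKS, an actin-binding substrate of protein kinase C downstream of gamma protocadherins, fell by 0.44 ± 0.10 (adjusted p = 0.005212, edgeR). With pinometostat 0 were higher and 3 lower: MARCKS fell by 0.59 ± 0.10 (adjusted p = 0.00548), the kinase FYN fell by 0.52 ± 0.10 (adjusted p = 0.009557) and AXIN1, a partner of the PCDHGC3 protein in Wnt signalling, fell by 0.42 ± 0.13 (adjusted p = 0.04902). These shares lie below the 17.6% of all genes with JQ1 and near the 8.20% with pinometostat. The list medians were 0.04 with JQ1, -0.22 with pinometostat and -0.07 in E92K, where none was called.

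Other cadherin superfamily genes gave 35 tested of 47. With JQ1 0 were higher and 2 lower: the desmosomal DSC2 fell by 0.90 ± 0.13 (adjusted p = 8.734e-05, edgeR) and CDH7 fell by 0.57 ± 0.17 (adjusted p = 0.03058). With pinometostat 0 were higher and 3 lower: the calsyntenin CLSTN3 fell by 0.63 ± 0.10 (adjusted p = 0.004281), CLSTN1 fell by 0.57 ± 0.10 (adjusted p = 0.006627), and CDH1, the epithelial cadherin, fell by 0.60 ± 0.18 (adjusted p = 0.04799). These shares too lie below the 17.6% of all genes with JQ1 and near the 8.20% with pinometostat. In E92K none was called. The medians were 0.07, -0.01 and -0.15 in this order.

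Of the marker lists of cell types, only the kidney list had most of its tested genes called with JQ1. Over all genes 10.4% were lower and 7.16% higher. Of 10 kidney markers tested 8 were lower (WT1 fell by 1.96 ± 0.23 and SIX2 fell by 0.85 ± 0.13 on the log2 scale), and 1, CITED1, was higher. The summed level of the list was 325 to 387 CPM with DMSO, 340.2 to 485 with JQ1, 284 to 309 with pinometostat and 326.5 to 376 in E92K. Of 13 neuronal markers tested 2 were higher with JQ1 (NEFM by 1.01 ± 0.28, TUBB3 by 0.85 ± 0.29) and 2 lower (NEUROG2 fell by 1.26 ± 0.21, SOX2 fell by 0.47 ± 0.15), with sums of 347 to 464.5 CPM with DMSO, 481.5 to 796 with JQ1, 262 to 342 with pinometostat and 349 to 446 in E92K. None of 6 blood and fibroblast markers tested was called, with sums of 268.5 to 321 with DMSO, 299 to 514 with JQ1, 176.5 to 303 with pinometostat and 209.7 to 319.9 CPM in E92K. No marker of the 3 lists was called with pinometostat or in E92K. The part of these markers in the protocadherin values was not tested.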

How the data were processed

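Total RNA of 16 HEK293T libraries was sequenced, and groups were taken from titles and treatment labels. The treatment text gives pinometostat in millimolar and the sample field in micromolar, and the field was used. Per the deposited files, the authors provide raw counts for every gene, and TPM values that entered 1 alternative. The sources used here do not give the aligner, the counter, the strand setting or the treatment of exons shared by genes. Coordinates are those of the deposited files, and all 72 protocadherin genes had the same start and end as in GENCODE release 29 (GRCh38).

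After filterByExpr (at least 10 counts in enough libraries, 15 in total) 17306 genes remained. With TMM scaling, the edgeR 4.0.16 quasi-likelihood model (R 4.3.3) was fitted to the 16 libraries together, 1 mean for each group, leaving 12 residual degrees of freedom. Tests were two-sided, and p-values were adjusted by Benjamini-Hochberg across the genes tested, with a threshold of 0.05. The fit was tested on simulated data. CPM is the TMM-scaled count relative to library size. Alternatives were DESeq2 1.42.0, limma-voom (limma 3.58.1) with and without library quality weights, 3 other scalings, 2 other filters, the replicate block, log2(TPM + 1), subsets of libraries and each library left out. Fixed lists of regulators, partners, other cadherins and kidney, neuronal, blood and fibroblast markers were described by counts.

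Values in each library are given for genes with an adjusted p below 0.05 and at least 1 CPM, and for the 3 genes of each class with the most counts. PCDH17 met neither condition, and its values with DMSO and JQ1 are given in addition. The figures also show libraries of other genes. The members, the lists and the exclusion of the pair of libraries were chosen with earlier results of these data known. Samples with the same number did not deviate together, with correlations from -0.208 to 0.147.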

Additional observations from a re-analysis of the deposited data

Results flagged for a closer look

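Of 72 sets of 4 libraries (18 genes in 4 groups), 7 held a library far from the other 3, by Dixon's ratio of its gap to the group's range. By chance about 1 in 20 groups is marked in this way, and the sets are not independent, since genes share libraries.

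Of these, 3 were in JQ1 replicate 1. PCDHGC3 was at 3.26 CPM there against 20.7 to 21.6 CPM in the other JQ1 libraries, and PCDH19 at 5.80 CPM against 15.7 to 16.1 CPM. PCDH17 was higher instead, at 13.2 CPM against 5.71 to 6.39 CPM. A further 2 were in E92K replicate 4, where PCDHGC3 was at 3.85 CPM against 12.5 to 13.8 CPM and PCDH19 at 2.64 CPM against 4.13 to 4.38 CPM. The mitochondrial shares of these libraries were 16.5% and 7.45%, and their part in these values was not tested.

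The remaining 2 were in libraries with mitochondrial shares of 4.19% and 4.44%. PCDHB2 was at 0.743 CPM in E92K replicate 1 against 0.420 to 0.451 CPM, and PCDHGA11 was at 3.71 CPM in pinometostat replicate 2 against 2.77 to 2.90 CPM.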

How the results depend on the processing

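With JQ1 the count of higher genes was 1 (PCDH19) and became 0 under limma-voom, library size alone, log2(TPM + 1) and the 8 libraries alone, and 0 to 1 when each library was left out. The count of lower genes was 2 to 4 over all alternatives and 2 to 3 with a library left out, and always held PCDH18 and PCDH1. With pinometostat, quality weights and the exclusion of JQ1 replicate 1 and E92K replicate 4 gave 1 higher (PCDH9) and 2 lower genes (PCDHGA11 and PCDHGC3), and the 8 libraries alone gave the same 2 lower. These settings called 32.1%, 27.4% and 27.6% of all genes in turn, so the members' shares lie below the background. For E92K, 2 were lower with quality weights (PCDH19 and PCDHGC3), 1 without a filter (PCDH19) and 1 without that pair (PCDH19), where 6.34%, 0.0108% and 0.0172% of all genes were called. Leaving out each library in turn gave 0 for pinometostat and E92K. The causes were not tested.

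Same-numbered samples were not shown to be paired. With the replicate block, 0 genes were higher with JQ1 (PCDH19 0.74, adjusted p = 0.0752, edgeR) and PCDH8 lost its call (-0.81, adjusted p = 0.05224). Not every sample correlated best with its own number.

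Library size alone and log2(TPM + 1) moved the median of all genes with JQ1 from 0.04 to -0.14 and -0.21. PCDH7 was then called with library size alone (-0.39, adjusted p = 0.03248, edgeR), and PCDH9 turned to -0.087 and -0.16. Other changes of sign were in log2 fold changes that never passed the threshold in any setting of that comparison. With a library left out, values with JQ1 ran from -0.68 to 0.084 for PCDHGB5, -0.086 to 0.65 for PCDHGB6, -0.37 to 0.068 for PCDHGC3, -0.43 to 0.079 for PCDHGC4 and -0.092 to 0.44 for PCDH15. With pinometostat they ran from -0.18 to 0.0019 for PCDH10, -0.41 to 0.17 for PCDHGB5, -0.25 to 0.054 for PCDHGB6, -0.12 to 0.39 for PCDH12, -0.13 to 0.042 for PCDH17 and -0.068 to 0.14 for PCDH19. In E92K they ran from -0.015 to 0.27 for PCDH18 and from -0.16 to 0.12 for PCDH15. Without the pair, JQ1 gave 0.063 for PCDHGB5, 0.079 for PCDHGC3 and 0.088 for PCDHGC4. Quality weights gave 0.027 for PCDHGC3, 0.15 for PCDHGC4 and -0.18 for PCDH12 with JQ1, and for PCDH12 -0.22 with pinometostat and -0.081 in E92K. PCDH19 with pinometostat was -0.003754 by library size and -0.070 by TPM, and by TPM E92K gave -0.003775 for PCDH18 and -0.013 for PCDH9.

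Depth limits the alpha and beta genes, of which 1 of 35 passed the filter, and the smaller gamma genes.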
